A study of Drosophila melanogaster with 2 samples.

Results

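The 10 tubulin genes described here were chosen by name from the Ensembl BDGP6 annotation (release 115), 10 of 13968 protein-coding genes on the 7 chromosome arms. They are the alpha-tubulins alphaTub84B, alphaTub84D, alphaTub85E and alphaTub67C, the beta-tubulins betaTub56D, betaTub60D, betaTub85D and betaTub97EF, and the gamma-tubulins gammaTub23C and gammaTub37C. Occupancy of MBD-R2, a chromatin protein of the NSL (non-specific lethal) complex, was measured by chromatin immunoprecipitation and sequencing (ChIP-seq) with an antibody against GFP, in whole Drosophila melanogaster embryos of 0 to 24 h from the MBD-R2-GFP strain, which expresses MBD-R2 fused to eGFP; whether the fusion replaces or adds to the untagged protein is not stated in the labels. There was 1 group with 2 biological replicates and no contrast between conditions. The main thresholded list, made from both replicates, held 7544 peaks, the conservative list 5704, and the lists of replicates 1 and 2 held 4113 and 7542. The embryos were a mixture of ages and of all tissues, so a peak in few cells and a weaker peak in many cells cannot be told apart. Read depth was not given in the sources used here. Signal means the column of peak strength that the authors deposited, whose scale they do not state.

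Alpha- and beta-tubulin form the heterodimer that polymerises into microtubules, and gamma-tubulin sits in the ring complex that nucleates them. Drosophila has separate genes for isotypes used in different cells. AlphaTub84B, alphaTub84D, betaTub56D and gammaTub23C serve most cells. AlphaTub67C and gammaTub37C are maternal isotypes, made in the female germline and supplied to the egg. BetaTub85D belongs to the male germline, where it builds meiotic spindles and the sperm axoneme. AlphaTub85E and betaTub60D are used in developing muscle and some other differentiating tissues, and betaTub97EF has a restricted pattern. These classes come from textbook knowledge, and RNA was not measured here.

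The sequences at the starts of 6 members, and 2 further regions that carry peaks, are shown because the presence or absence of a peak is the main difference among the members. They are from the RefSeq copy of dm6, 5′ to 3′ on the strand of the named gene. Each start covers 200 bases before the transcription start site (TSS) and 30 bases from it on. The region towards gammaTub37C covers 240 bases before the pigeon TSS and 30 from it on, and the intronic one 100 bases either side of a summit. Capitals mark exact matches to 5 short motifs: ATCGAT (the core of the DNA replication-related element, DRE), GTCACAC (the core of motif 1), CAGCTG (an E-box) and GAGAG (the GAGA element) on either strand, and TATAAA (the TATA box) on the sense strand. The intervals are chr3R:7086399-7086628 (plus strand) for alphaTub84B, chr3R:7530553-7530782 (plus) for alphaTub84D, chr2L:2972691-2972920 (plus) for gammaTub23C, chr3L:9681068-9681297 (plus) for alphaTub67C, chr2L:19185697-19185926 (minus) for gammaTub37C, chr2L:19185803-19186072 (plus) for pigeon, chr3R:9733221-9733450 (minus) for alphaTub85E and chr3R:27987480-27987680 (minus) for the intron of betaTub97EF. The gammaTub37C and pigeon intervals overlap, since these genes start back to back.
alphaTub84B: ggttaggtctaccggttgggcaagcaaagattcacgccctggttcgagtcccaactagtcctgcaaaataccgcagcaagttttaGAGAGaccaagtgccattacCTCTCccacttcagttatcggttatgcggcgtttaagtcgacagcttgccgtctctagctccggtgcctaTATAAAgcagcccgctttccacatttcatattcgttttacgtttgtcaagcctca
alphaTub84D: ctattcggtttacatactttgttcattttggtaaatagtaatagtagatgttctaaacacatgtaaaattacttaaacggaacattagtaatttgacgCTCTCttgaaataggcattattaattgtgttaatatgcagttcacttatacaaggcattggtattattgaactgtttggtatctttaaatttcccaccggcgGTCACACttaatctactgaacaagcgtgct
gammaTub23C: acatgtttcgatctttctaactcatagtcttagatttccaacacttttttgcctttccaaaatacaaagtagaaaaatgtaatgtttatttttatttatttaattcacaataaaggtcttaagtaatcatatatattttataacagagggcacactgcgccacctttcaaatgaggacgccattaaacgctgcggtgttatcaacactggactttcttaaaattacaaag
alphaTub67C: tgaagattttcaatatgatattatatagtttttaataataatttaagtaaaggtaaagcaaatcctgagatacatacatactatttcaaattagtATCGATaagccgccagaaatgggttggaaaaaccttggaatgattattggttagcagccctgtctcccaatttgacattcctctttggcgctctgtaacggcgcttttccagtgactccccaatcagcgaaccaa
gammaTub37C: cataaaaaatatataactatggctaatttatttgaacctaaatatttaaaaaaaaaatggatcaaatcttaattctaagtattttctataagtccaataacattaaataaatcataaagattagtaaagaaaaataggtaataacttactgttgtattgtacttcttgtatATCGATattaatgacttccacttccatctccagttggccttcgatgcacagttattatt
pigeon: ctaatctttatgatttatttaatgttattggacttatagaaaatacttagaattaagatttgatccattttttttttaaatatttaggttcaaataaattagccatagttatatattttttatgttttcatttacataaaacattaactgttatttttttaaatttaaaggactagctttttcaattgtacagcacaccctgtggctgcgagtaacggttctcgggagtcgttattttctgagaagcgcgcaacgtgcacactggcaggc
alphaTub85E: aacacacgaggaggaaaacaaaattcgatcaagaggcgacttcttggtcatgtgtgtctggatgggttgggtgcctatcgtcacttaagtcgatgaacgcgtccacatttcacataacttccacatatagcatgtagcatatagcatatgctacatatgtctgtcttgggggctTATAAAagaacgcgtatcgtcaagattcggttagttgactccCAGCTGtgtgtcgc
betaTub97EF intron: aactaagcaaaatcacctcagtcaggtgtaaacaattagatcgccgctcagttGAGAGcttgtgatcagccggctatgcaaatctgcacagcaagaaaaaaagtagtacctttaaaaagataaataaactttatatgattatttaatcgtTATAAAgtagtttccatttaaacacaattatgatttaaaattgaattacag

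The share of tubulin genes with MBD-R2 near a start was below or near that of all coding genes, depending on the list. A gene counted as bound if any of its TSSs had a peak summit at most 500 bp away. By that rule 3 of the 10 members were bound in the main list, alphaTub84B, gammaTub23C and gammaTub37C, against 44.0% of all protein-coding genes. The same 3 were bound in the conservative list, where 39.7% of coding genes were, and in the list of replicate 1, where 33.2% were. The list of replicate 2 added alphaTub84D, giving 4 of 10 against 43.5%. With 10 genes picked by name no test was run. In the main and conservative lists 3 of 10 is below the share of all genes by only 1 or 2 genes. In each replicate's own list the count is near that share.

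**Figure D1:**
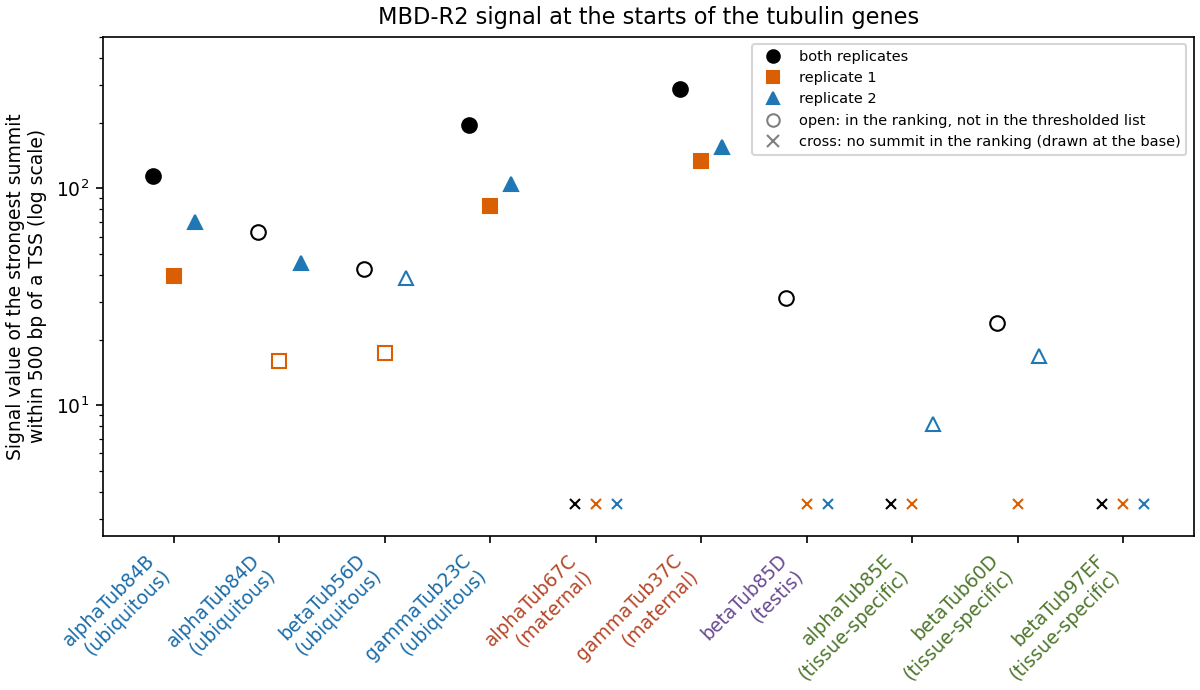
Signal value of the strongest summit within 500 bp of a TSS of each tubulin gene (log axis), from both replicates together (circles), replicate 1 (squares) and replicate 2 (triangles). Filled symbols are peaks of the thresholded lists, open ones are in the ranking only, and crosses mark no summit in that ranking. AlphaTub84B, gammaTub23C and gammaTub37C are filled in all 3, from 39.5 to 287, and the other members are open or crossed except alphaTub84D in replicate 2.

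Of the ubiquitous isotypes 2 of 4 were bound in the main list, and of the maternal, testis and tissue-specific ones 1 of 6, against 44.0% of all coding genes. Each of the 2 bound ubiquitous genes had the summit nearest to its own TSS. The 1 bound gene of the other classes, gammaTub37C, did not, because its summit sat at the start of pigeon. Counting only genes whose own TSS was the nearest coding one, the classes had 2 of 4 and 0 of 6, against 35.7% of all coding genes. By kind of tubulin, 2 of 2 gamma-tubulins, 1 of 4 alpha-tubulins and 0 of 4 beta-tubulins were bound in the main list, against the same 44.0%. The gamma-tubulin count includes gammaTub37C, whose summit sat at the start of pigeon.

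The classes also differed in how their genes lie. All 4 ubiquitous members have a coding gene starting back to back with them within 1 kb, and of the other 6 only gammaTub37C has one. Among all coding genes 73.6% of 4648 with such a neighbour were bound in the main list, and 29.3% of 9320 without. Of the members 3 of 5 with a back-to-back neighbour were bound and 0 of 5 without. The part of this layout in the difference between the classes was not tested.

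AlphaTub84B (FBgn0003884) encodes the most widely used alpha-tubulin. The gene lies at 3R, 7086599 to 7088839, on the plus strand, and Tailor, which encodes a terminal uridylyltransferase, starts 516 bp away on the other strand. Its promoter peak covered 3R, 7086408 to 7086847, in the main list, with the summit in the 5′ UTR, 29 bp downstream of the TSS, and a signal of 114. Replicate 1 gave 39.5, with the summit 29 bp upstream of the TSS, and replicate 2 gave 70.0, with the summit 18 bp upstream. It was present in both replicates, towards the weak end of the bound promoters. Of the 6151 bound coding genes 25.7% had a lower signal in the main list, as did 4.27% of 4638 in replicate 1 and 22.9% of 6070 in replicate 2. In both replicates' own lists the summit was also within 500 bp of the Tailor TSS.

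AlphaTub84B had further peaks around it. Downstream of the gene the main list held a peak of 98.1 at 3R, 7089451 to 7089890, whose summit was 3072 bp from the TSS, and one of 63.9 at 3R, 7090213 to 7090652, whose summit lay within an annotated copy of the hobo transposable element. The signal of a peak in a repeated element is uncertain. The first of these was in the conservative list and in replicate 2 (62.6), but not in the list of replicate 1, where the ranking held it with a signal of 27.8. The list of replicate 2 alone held a peak of 48.4 with its summit 866 bp upstream of the alphaTub84B TSS and 73 bp from the start of asRNA:CR45907, a non-coding antisense RNA. In the main ranking that peak had a signal of 58.4 and an irreproducible discovery rate (IDR) of 0.0126, just over the limit of 0.01. The IDR is the expected share, among peaks at that rank or better, that do not reproduce.

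AlphaTub84D (FBgn0003885) encodes an alpha-tubulin of the same ubiquitous class, with a coding sequence that differs from that of alphaTub84B at 105 of 1350 bases (92.2% identity). The gene lies at 3R, 7530753 to 7532732, on the plus strand, 512 bp from the start of Rtnl2, a reticulon-like gene. No peak of the main, conservative or replicate 1 list lay in it or within 2 kb. The list of replicate 2 had a peak of 45.3 at 3R, 7530722 to 7531141, with the summit 179 bp downstream of the TSS in the 5′ UTR. In the main ranking a peak with its summit 183 bp downstream of the TSS had a signal of 63.3 and an IDR of 0.300. In the replicate 1 ranking the only summit within 500 bp of the TSS had a signal of 16.0 and lay 352 bp upstream. It was nearer to the start of Rtnl2 (160 bp). Its peak did not overlap that of replicate 2, so the replicates differ here. No stretch of 50 bases within 500 bp of the TSS of either gene occurs elsewhere on the chromosome arms, while 3.60% of the gene body of alphaTub84B and 4.09% of that of alphaTub84D do.

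GammaTub23C (FBgn0260639), the gamma-tubulin of somatic cells, had the strongest peak among the members whose own TSS was nearest. The gene lies at 2L, 2972891 to 2974858, on the plus strand, 383 bp from the start of Rrp1, a DNA repair nuclease gene on the other strand. The peak at 2L, 2972711 to 2972972, had a signal of 196 in the main list, with the summit 59 bp upstream of the TSS, between the starts of the 2 genes. The signal was 83.1 in replicate 1 (summit 37 bp upstream) and 105 in replicate 2 (44 bp upstream). Of the bound coding genes 59.4% had a lower signal in the main list, 53.7% in replicate 1 and 48.7% in replicate 2, so this was a promoter of middling strength in every list. The ratio of replicate 2 to replicate 1 was 1.27 here, 1.77 at alphaTub84B and 1.16 at gammaTub37C, beside a median of 1.55 (quartiles 1.28 and 1.87) over 4505 coding genes bound in both. These ratios are not normalised for depth. A second peak reached into the 2 kb downstream of the gene, with a signal of 280 in the main list and 190 in replicate 2, at 2L, 2976850 to 2977137. Its summit was 89 bp from the start of CG3165, a neighbour bound in replicate 1 too (101), by a peak farther than 2 kb from gammaTub23C.

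BetaTub56D (FBgn0284243) encodes the ubiquitous beta1-tubulin, and its neighbours carried strong peaks while its own starts did not pass the threshold. It lies at 2R, 19447319 to 19451600, on the minus strand, and has 2 annotated TSSs. Within 2 kb of the gene the main list held 2 strong peaks, and neither was at a start of betaTub56D. One, of signal 324 in the main list, 110 in replicate 1 and 216 in replicate 2, had its summit 21 bp from the start of EloC, which encodes Elongin C. The other, of signal 235, and 93.7 and 144 in the replicates, had its summit 11 bp from the start of CG7744, whose TSS is 904 bp from the upstream TSS of betaTub56D. At the starts of betaTub56D itself the main ranking held a peak of 36.2 with its summit 22 bp upstream of the upstream TSS (IDR 0.0257) and one of 42.6 with its summit 47 bp upstream of the internal TSS (IDR 0.0265). Both fell short of the authors' limit of 0.01 and passed one of 0.05. In the replicates' own rankings the strongest values near the upstream TSS were 17.5 in replicate 1 and 35.5 in replicate 2. Near the internal TSS they were 13.1 and 38.7.

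**Figure D2:**
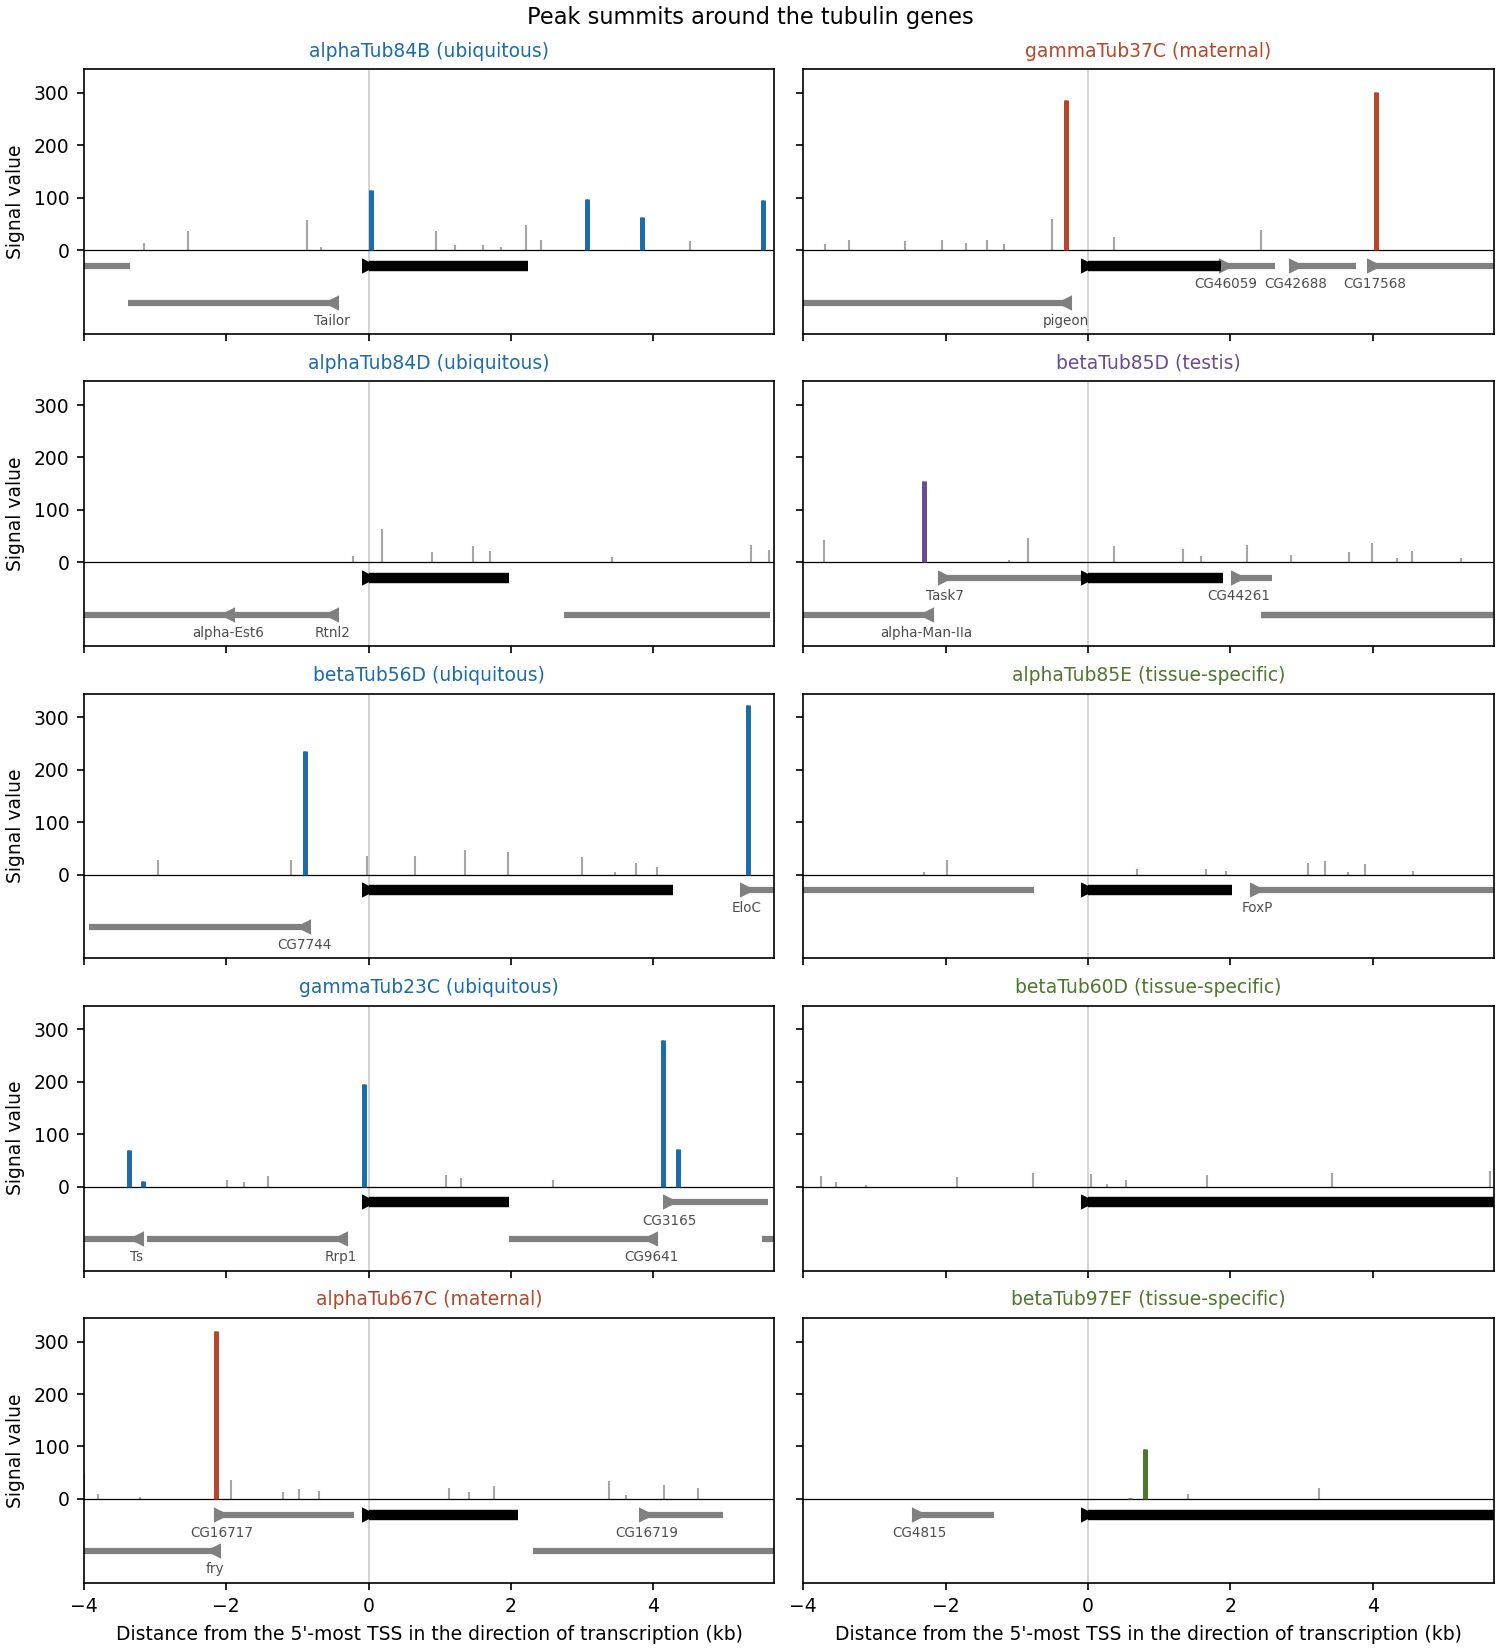
Summits around the 5′-most TSS of each tubulin gene, with distance in kb in the direction of transcription on the x axis and signal value on the y axis. Coloured lines are main-list peaks, grey lines are peaks of the main ranking that were not in that list, black bars are the tubulin genes and grey bars neighbouring coding genes, with arrowheads at their starts. The tall lines beside betaTub56D (235 and 324), alphaTub67C (319) and gammaTub37C (287) stand at the starts of neighbours.

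GammaTub37C (FBgn0010097), the gamma-tubulin of the female germline and early embryo, was bound by the distance rule only through its neighbour. The gene lies at 2L, 19183863 to 19185726, on the minus strand, and its TSS is 317 bp from that of pigeon, a gene on the other strand. The peak at 2L, 19185940 to 19186196, had a signal of 287 in the main list, 134 in replicate 1 and 155 in replicate 2. Its summit was 5 bp from the pigeon TSS and 312 bp upstream of the gammaTub37C TSS in the main list. It was 36 bp and 353 bp away from them in replicate 1, and 5 bp and 312 bp in replicate 2. All 3 summits were thus closer to pigeon, and 79.9% of bound coding genes had a lower main-list signal than this peak. In the list of replicate 1 a peak of 103 at the start of CG17568 also reached into the 2 kb downstream of gammaTub37C.

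AlphaTub67C (FBgn0087040), the maternal alpha-tubulin, had no summit within 500 bp of its TSS in any list or ranking. It lies at 3L, 9681268 to 9683370, on the plus strand. Beyond its 2 kb flank the paired starts of fry and CG16717 carried a main-list signal of 319. In replicate 1 the peak there, of 111 with its summit 2148 bp upstream of the alphaTub67C TSS, reached into the flank. Replicate 2 had a signal of 206 at those starts, outside the flank, and a weaker, separate peak of 36.3 beside it, with its summit 1912 bp upstream of the alphaTub67C TSS. In the coding exon of the gene the strongest peak of the main ranking had a signal of 25.2 and an IDR of 0.557.

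BetaTub85D (FBgn0003889), the testis beta-tubulin, lies at 3R, 9408383 to 9410282, on the minus strand. No peak of the 4 thresholded lists lay in it or within 2 kb. The strongest ranked peak near its start had a signal of 31.4, with the summit 372 bp downstream of the TSS (IDR 0.456), and neither replicate's own ranking had a summit within 500 bp. A ranked peak of 45.6 with its summit 836 bp upstream of the TSS had an IDR of 0.0364. Farther upstream a peak of 156 in the main list (52.0 in replicate 1 and 108 in replicate 2) stood at the start of alpha-Man-IIa, a mannosidase gene whose TSS is 2266 bp from that of betaTub85D on the other strand.

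The 3 tissue-specific members differed from each other. AlphaTub85E (FBgn0003886; 3R, 9731221 to 9733250, minus strand) had no peak within 2 kb in the 4 thresholded lists, and its strongest ranked signal in replicate 2 within 500 bp of the TSS was 8.18. BetaTub60D (FBgn0288686; 2R, 24305881 to 24313099, plus strand), the beta3-tubulin of developing muscle, had none either. At its TSS the main ranking held 23.9 with the summit 47 bp downstream (IDR 0.729). Over the gene and 2 kb on either side its 12 ranked peaks reached at most 29.5.

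BetaTub97EF (FBgn0003890; 3R, 27967008 to 27988384, minus strand) had an intronic peak and none at its start. The peak at 3R, 27987360 to 27987799, had a signal of 94.2 in the main list, with the summit 804 bp downstream of the TSS, within an intron. A second, overlapping entry of the main list had a signal of 2.39 and its summit 597 bp downstream. Replicate 2 had a peak of 64.6 with the summit 806 bp downstream of the TSS. Replicate 1 had no peak within 2 kb of the gene in its thresholded list, and its ranking held none within the first 10 kb of the gene, so the intronic peak rests on replicate 2. It was not in the conservative list. No other coding TSS was nearer to it than that of betaTub97EF.

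By the wider rule of a peak overlapping the gene or the 2 kb on either side, 5 of the 10 members had at least 1 main-list peak, against 59.0% of coding genes. These were alphaTub84B with 3 peaks, betaTub56D, gammaTub23C and betaTub97EF with 2 each, and gammaTub37C with 1. The count was 4 in the conservative list (53.7% of coding genes), 5 in replicate 1 (47.0%) and 7 in replicate 2 (58.5%). Of the 10 main-list peaks, 5 were nearest to the TSS of the tubulin gene among coding genes, namely 2 at alphaTub84B, 1 at gammaTub23C and 2 at betaTub97EF.

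**Figure D3:**
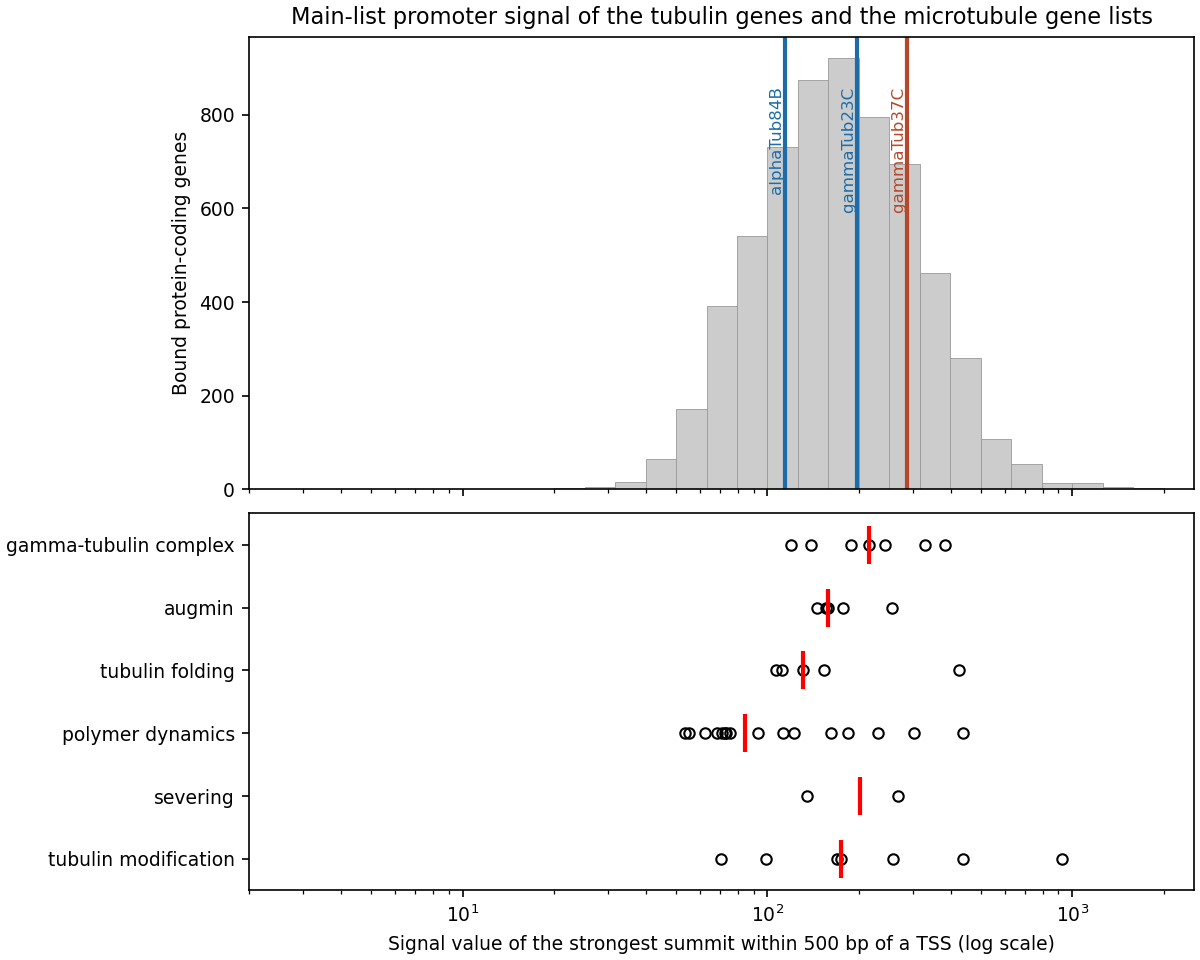
The upper panel shows how many of the 6151 bound coding genes have each main-list promoter signal (log axis), with lines at alphaTub84B (114), gammaTub23C (196) and gammaTub37C (287, a peak at the start of pigeon). The median of these genes is 170. The lower panel shows each bound gene of the microtubule lists as a circle, with the median of each list in red.

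The promoters of the members held different motifs, and none of the 5 stood in all 3 bound members. A TATA box stood 25 bp upstream of the alphaTub84B TSS, 26 bp upstream of the upstream TSS of betaTub56D and 26 bp upstream of the alphaTub85E TSS. A TATAAA that starts 35 to 20 bp upstream was found in 6.99% of 13968 coding promoters, in 1.41% of 5869 whose 5′-most TSS was bound and in 11.0% of 8099 whose 5′-most TSS was not. AlphaTub84B was thus bound with a promoter element that was rare among bound genes. It also had a pair of GAGA elements on opposite strands, 115 and 95 bp upstream. GAGAG stood in alphaTub84D too, 102 bp upstream, and before both TSSs of betaTub56D, and neither gene was bound in the main list. It stood in 24.7% of coding promoters, 18.9% of bound and 28.9% of unbound ones.

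The DRE core, which 34.8% of bound and 10.8% of unbound promoters held (20.9% of all), was found in both maternal genes. In alphaTub67C it lay 105 bp upstream of the TSS and in gammaTub37C 29 bp upstream, and neither gene had a thresholded peak nearest to its own start. The core of motif 1, held by 14.9% of bound and 2.77% of unbound promoters (7.88% of all), stood at the TSS of alphaTub84D, which was bound in replicate 2 only. Among the members the E-box stood only in alphaTub85E, 16 bp downstream of the TSS. It stood in 14.6% of all promoters, in 21.1% of bound and 9.91% of unbound ones, and alphaTub85E was not bound. GammaTub23C and the pigeon stretch carried the strongest main-list peaks within 500 bp of a member's TSS. Like betaTub85D and betaTub60D, they held none of the 5 motifs in these windows. BetaTub97EF had TATAAA 95 bp upstream of its TSS, outside that range. Its intronic peak held GAGAG 47 bp upstream of the summit and TATAAA 50 bp downstream of it. A match is a description of the letters and says nothing about which factor was bound.

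Among genes that act on tubulin the share with MBD-R2 at their starts differed from list to list. Of 58 genes in all, betaTub65B included, 42 had a promoter summit in the main list (72.4%), beside 44.0% of all coding genes, and their median signal was 154 beside 170. For 34 of the 42 no other coding gene had a TSS nearer to the summit, and for 8 another did. Of the 58, 33 were bound in the conservative list (56.9%, beside 39.7% of coding genes), 28 in replicate 1 (48.3%, beside 33.2%) and 41 in replicate 2 (70.7%, beside 43.5%). The difference from the tubulin genes was not tested.

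Partners of gamma-tubulin and folding factors were bound as follows. Of 8 genes of the gamma-tubulin complex and its recruitment, 7 were bound in the main list (87.5%, beside 44.0% of coding genes). They were led by cnn, the centrosomal scaffold protein (381), Grip84 (329) and Grip71 (242), with Mzt1 not bound. The summits of Grip84, Grip71 and Grip128 (188) were nearer to the starts of car, Faf2 and Alg14. That left 4 of the 8 with their strongest summit nearest to their own start, and 35.7% of coding genes had any summit so placed. All 5 tubulin folding cofactors were bound in the main list, beside 44.0% of coding genes, with Tbcd at 425, Tbca at 153 and Tbcc at 130. In the list of replicate 1, 3 of the 5 were bound, beside 33.2% of coding genes. Augmin, which recruits gamma-tubulin to existing spindle microtubules, had 5 of 8 bound (62.5%, beside 44.0%). Its strongest were dgt3 (255, nearer to Prosalpha3), dgt2 (176) and wac (158), and dgt4, msd1 and msd5 were not bound in the main list, though msd5 was in replicate 2 (36.9).

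Genes that set microtubule growth and length had 16 of 19 bound in the main list (84.2%, beside 44.0% of coding genes) and 14 in replicate 2 (73.7%, beside 43.5%). In the conservative list 8 were bound (42.1%, beside 39.7%) and in replicate 1 7 (36.8%, beside 33.2%), shares near those of all coding genes. Jupiter (439, nearer to CG14710), Map60 (303) and msps (230), the microtubule polymerase, were strongest, and Klp59C, Map205 and ssp2 were not bound in the main list, though ssp2 was in replicate 2 (60.9). The median of their 16 signals was 84.2, and the weakest were tau (53.5), stai (55.3) and futsch (62.3). None of these was bound in the conservative list or in replicate 1, and only futsch was in replicate 2 (45.4). Of the severing enzymes, spas, the fly spastin (267, nearer to Miro), and Kat60, the catalytic subunit of katanin (135), were bound and kat-60L1 was not. That is 2 of 3 genes, beside 44.0% of all coding genes. Only 1 of the 3 had its strongest summit nearest to its own start, and 35.7% of coding genes had any summit so placed. Of 14 genes for enzymes that modify tubulin 7 were bound, a share near the 44.0% of all coding genes, with the acetyltransferase gene Atat at 923 (334 in replicate 1 and 572 in replicate 2) far above the rest. That summit was 127 bp from the start of Atat and about as far from that of Shc. TTLL12 (438, nearer to puml) and TTLL4A (257) followed, and Nna1, TTLL1A and TTLL1B were not bound. BetaTub65B, the only other tubulin gene that its symbol identifies in the annotation, had no promoter summit in any of the 4 lists.

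**Figure D4:**
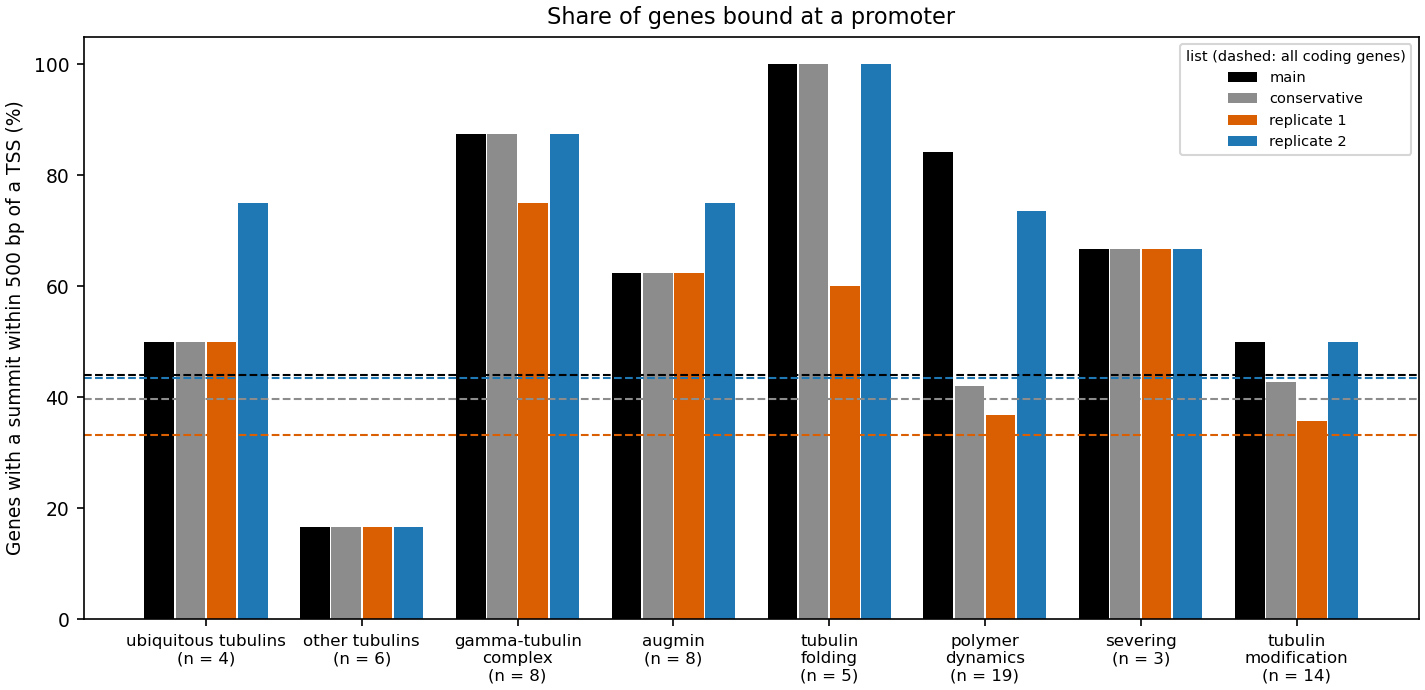
Share of genes with a summit within 500 bp of a TSS (%), for the ubiquitous and the other tubulin genes and for 6 lists of microtubule genes, in the main, conservative, replicate 1 and replicate 2 lists. Dashed lines give the share of all coding genes in each list (44.0%, 39.7%, 33.2% and 43.5%), and the other tubulins, with 1 of 6 bound, lie under all 4.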

How the data were processed

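The deposited files are ranked and thresholded lists of peaks on dm6, per the labels. No aligner or peak caller was given in the sources used here, and depth is unknown. Chromatin was sonicated to 200 to 800 bp, per the labels. The authors' signal values have no stated scale, and replicate lists are not normalised to each other. The deposited score is a scaled IDR, and 830, the smallest in the thresholded lists, equals an IDR of 0.01. In the deposited rankings a −log10 value gives each peak's IDR.

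Genes came from Ensembl release 115, without transposable elements, after checking that peaks lie within the chromosome lengths. Calls were computed with Python 3.11.15 and numpy 2.4.6 and checked on simulated summits. A peak near a gene overlapped it or its 2 kb flanks by at least 1 bp. Members, lists and their classes were chosen with earlier results of these data known. Named genes were all members and, per list, the 3 bound genes of highest signal and up to 3 unbound ones in alphabetical order. Tau, stai, futsch and genes with a nearer TSS were named after their values were seen. The motifs, the TATA range and the splits by kind of tubulin and by gene layout were also chosen after values were seen. Alternatives were other lists, windows, flanks and thresholds. No test was run, since 10 named genes in 1 group allow only a description.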

Additional observations from a re-analysis of the deposited data

How the results depend on the processing

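The count of 3 bound members was the same in the conservative list, with peaks at the highest score of 1000 only and with the 5′-most TSS. Leaving out 1 replicate at a time meant using the other replicate's own list, already described above, and no peaks were called anew. The bound members were then 3 to 4, with 2 to 3 of the ubiquitous ones and 1 of the others in both cases. Of the 58 microtubule genes 28 to 41 were bound, and of all coding genes 33.2% to 43.5%. A peak in the gene or within 2 kb was found for 5 to 7 members. A TSS window of 250 bp left 2 of 10 members bound, against 39.5% of coding genes. It left 0 of the maternal, testis and tissue-specific ones, since the summit beside gammaTub37C is farther away. With 1000 bp there were 5 of 10 members, against 47.4% of coding genes, and 2 of the 5 were from those classes. The intron of betaTub97EF and the start of CG7744 then came within reach. With no threshold all 10 members had a ranked peak in the gene or within 2 kb, in a main ranking of 100373 peaks. In the main list 3 members had such a peak when a peak counted only for the gene with the nearest coding TSS. The share of all coding genes was not computed for either count. An IDR of at most 0.05, tried after the data were seen, gave 4 bound members, adding betaTub56D, against 47.9% of coding genes. Genes of microtubule growth and length fell from 16 to 8 in the conservative list and to 7 in replicate 1. With 10 genes, 1 or 2 calls decide each share, and the unknown depth limits what a missing peak shows.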
